A study of Rattus norvegicus with 18 samples.

Results

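Expression of 10 genes of keratin filaments and of basal or transitional epithelium was examined in the lungs of rats treated with multi-walled carbon nanotubes (MWCNT). The genes were *Krt5*, *Krt7*, *Krt8*, *Krt14*, *Krt15*, *Krt17*, *Krt18*, *Krt19*, *Tp63*, and *Sfn*. Rows were taken by gene symbol, and all 10 were found among the 22081 genes of each deposited table. The samples were 18 male F344 rats in 6 groups, with 3 controls and 3 treated animals at Years 0.5, 1, and 2. The MWCNT-treated rats received MWNT-7, a straight, rigid carbon nanotube, at 0.5 mg/kg body weight by intratracheal instillation every 4 weeks from 9 weeks of age, and the control rats received the vehicle, saline with Tween 80. Each library was made from a small frozen piece of the accessory lobe of 1 rat. Tissue with tumor nodules seen by eye was excluded, and the fixed remainder of the lobe was checked under the microscope for tumors. The sequenced piece itself was not sectioned. The authors name as a limit that these pieces may have held focal hyperplasias, reactive or atypical, and early adenomatous lesions. Total counts ranged from 13297643 to 21130757. The alveolar type 2 gene *Sftpc* was expressed at 17721 to 39059 TPM (a level scaled for gene length, with the same total in every library) in every rat, as a piece of lung should show. In such bulk tissue, fewer cells of a type and less RNA per cell cannot be told apart.

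Keratins are intermediate filament proteins of epithelial cells, and a filament is built of pairs of 1 type I and 1 type II keratin. *Krt8* and *Krt7* (type II) and *Krt18* and *Krt19* (type I) encode the simple keratins of single-layered epithelium, which in the lung includes alveolar type 2, club, and ciliated cells. *Krt5* (type II) with *Krt14* and *Krt15* (type I) mark basal cells, the stem cells of stratified and pseudostratified airway epithelium, and *Krt17* (type I) is known from basal cells and from injured epithelium. *Tp63* encodes p63, the transcription factor that maintains basal cells. *Sfn* encodes 14-3-3 sigma, an epithelial member of the 14-3-3 family that can halt the cell cycle. After alveolar injury, cells that pass from the type 2 to the type 1 state are known to express *Krt8* strongly, together with *Sfn*, *Cldn4*, and *Krt19*.

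Promoter sequences were available for 5 of the 10 genes, *Krt5*, *Krt8*, *Krt18*, *Tp63*, and *Sfn*, as the 250 bases before the annotated start in RefSeq on GRCr8, a newer build than that of the counts. The windows of *Sfn*, the gene called at every time point below, and of the filament partners *Krt8* and *Krt18*, which are neighbours on chromosome 7, are shown 5′ to 3′ in the direction of transcription. Capitals mark matches on either strand to AP-1 (TGANTCA), the GC box (GGGCGG), the TATA box (TATAAA), or the CCAAT box (CCAAT). The windows are chr5:151111855-151112104 (minus strand) for *Sfn*, chr7:135010340-135010589 (minus strand) for *Krt8*, and chr7:135035918-135036167 (plus strand) for *Krt18*.
Sfn: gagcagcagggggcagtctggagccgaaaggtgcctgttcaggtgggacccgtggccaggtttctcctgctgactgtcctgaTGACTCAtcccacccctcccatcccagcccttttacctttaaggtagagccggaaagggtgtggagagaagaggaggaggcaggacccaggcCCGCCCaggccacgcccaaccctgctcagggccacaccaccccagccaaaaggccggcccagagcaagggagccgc
Krt8: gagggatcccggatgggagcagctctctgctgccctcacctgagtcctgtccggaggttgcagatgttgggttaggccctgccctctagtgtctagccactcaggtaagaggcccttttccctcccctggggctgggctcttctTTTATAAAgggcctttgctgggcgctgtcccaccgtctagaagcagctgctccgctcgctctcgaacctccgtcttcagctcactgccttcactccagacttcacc
Krt18: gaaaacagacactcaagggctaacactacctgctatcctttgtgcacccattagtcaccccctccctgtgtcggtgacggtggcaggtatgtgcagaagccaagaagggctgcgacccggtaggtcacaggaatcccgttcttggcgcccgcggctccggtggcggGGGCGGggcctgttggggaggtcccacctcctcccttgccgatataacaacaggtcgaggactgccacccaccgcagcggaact

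The *Sfn* window held an AP-1 match that began 168 bases before the start and a GC box match at 76 bases. AP-1 letters were present in 6.36% of all 27457 windows of this length, and in the *Sfn* window alone of the 5. The *Krt8* window held TATA box letters on both strands, which overlap, from 104 and 106 bases before the start, and such letters were present in 13.1% of windows. *Krt18* and *Krt5* each held 1 GC box match, as did 32.4% of windows. CCAAT letters were present in the *Krt5* and *Tp63* windows and in 34.3% of all windows. These matches describe the letters only and were not tied to binding or expression.

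The levels of the 10 genes differed widely. Over the 18 rats the mean TPM was 341 for *Krt19*, 210 for *Krt7*, 197 for *Krt8*, and 62.7 for *Krt18*, so that the simple keratins stood far above the others. *Krt15* followed at 11.9 and *Sfn* at 9.82, and then *Krt14* at 1.48, *Krt17* at 1.12, *Krt5* at 0.849, and *Tp63* at 0.195. *Krt19* was above *Krt7* in 18 of 18 rats, and *Krt8* was above *Krt18* in 18 of 18. Some neighbours in the order were not separated, since *Krt7* was above *Krt8* in 13 of 18 rats, *Krt15* above *Sfn* in 10, *Krt14* above *Krt17* in 11, and *Krt5* above *Tp63* in 8. The 4 simple keratins made up 94.9% to 99.6% of the summed TPM of the 8 keratins in each rat. The ratio of summed type I to summed type II keratin TPM stayed between 0.91 and 1.10 in the 18 rats, with no separation between treated and control rats.

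**Figure D1:**
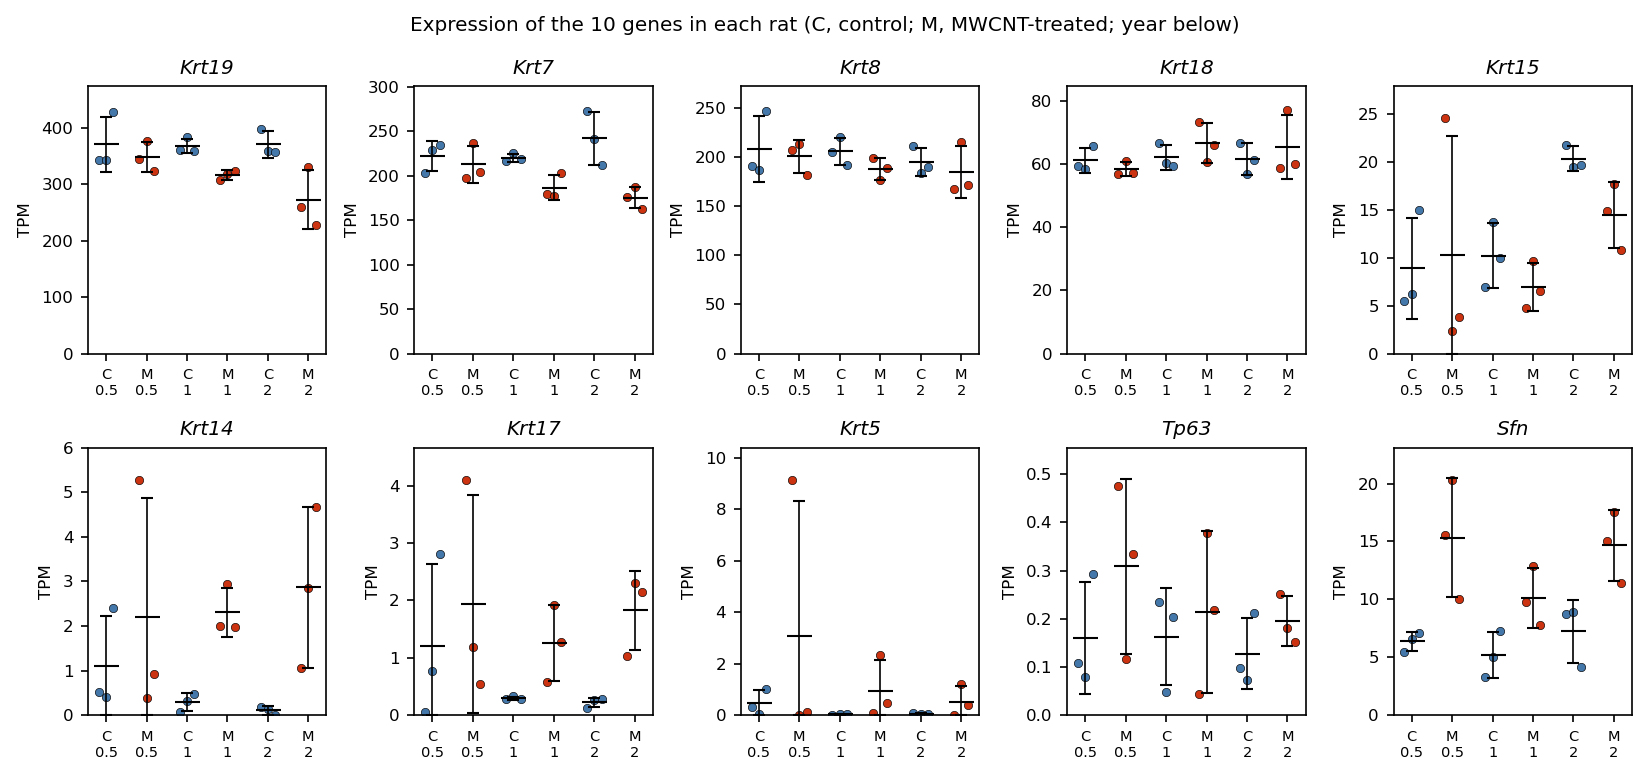
TPM of each of the 10 genes (vertical axis, from 0) in each rat, by group: C is control, M is MWCNT-treated, and the number is the year. Points are rats, horizontal bars are means, and error bars are the SD of 3 rats, drawn no lower than 0. *Sfn* lies higher in all treated rats than in the control rats of the same year. *Krt7* and *Krt19* lie lower in all treated rats of Years 1 and 2 on this scale, and *Krt14*, *Krt17*, and *Krt5* spread widely at Year 0.5.

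For the comparison of MWCNT-treated with control rats, the quasi-likelihood test of edgeR was applied to the counts, and a DEG had a Benjamini-Hochberg FDR below 0.05 over all genes and an absolute log2 fold change above 1. At Year 0.5, 1 of the 9 genes tested was a DEG (*Sfn*), against 9.1% of all 14315 genes tested. At Year 1, 3 of 8 were DEGs (*Krt14*, *Krt17*, and *Sfn*), against 10.2% of 14345 genes, and at Year 2 the same 3 of 8 were, against 16.4% of 14361 genes. All of these calls were upregulated, and no member was lower at an FDR below 0.05 at any time point in this fit. *Krt5* had too few counts to pass the filter at any time point, and *Tp63* passed it at Year 0.5 alone. The median log2 fold change of the tested members was 0.32, 0.22, and 0.22 at Years 0.5, 1, and 2, beside -0.02, 0.00, and -0.01 for all genes tested. A gene of low level that passes the filter does so through the group in which it is high. *Krt14* and *Krt17* passed it at Years 1 and 2 through the treated rats. The counts of DEGs beside the shares of all genes, and these medians, are therefore a description. At an FDR below 0.05 alone, *Krt18* was added at Year 1, for 4 of 8 genes, and the counts were 1 of 9 and 3 of 8 at Years 0.5 and 2, where 38.8%, 41.2%, and 49.2% of all genes passed at Years 0.5, 1, and 2.

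**Figure D2:**
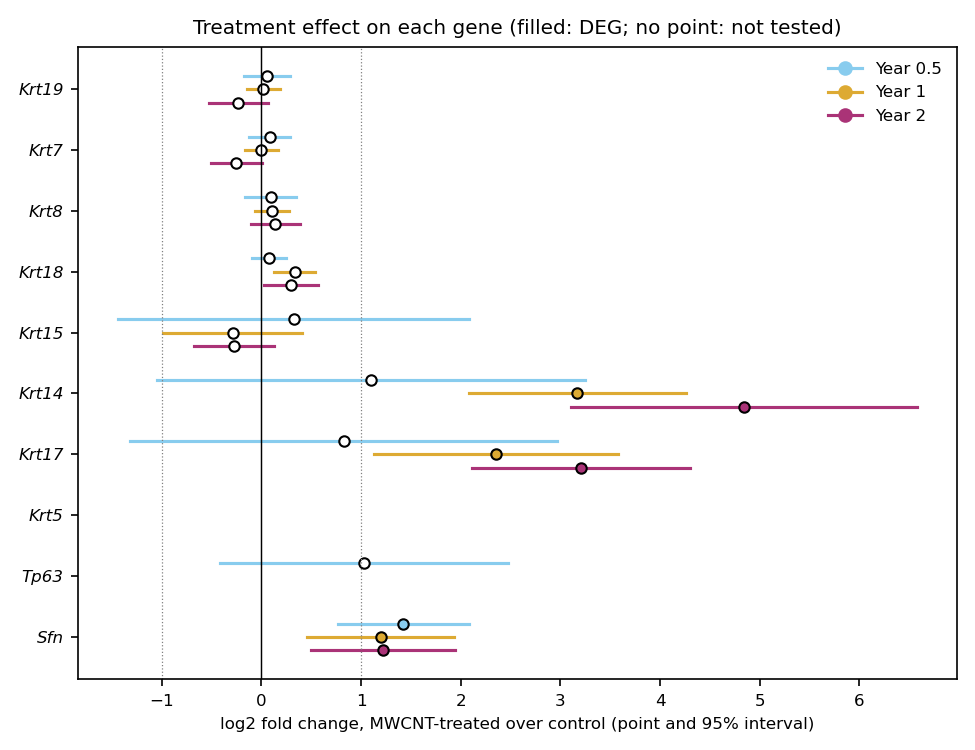
Log2 fold change of MWCNT-treated over control rats (horizontal axis) with its 95% interval, for each gene and year, from edgeR with 3 rats a group. Filled points are DEGs, dotted lines mark a log2 fold change of 1 in either direction, and a missing point means that the gene was not tested. *Sfn* is filled at all 3 time points and *Krt14* and *Krt17* at Years 1 and 2, while the intervals of *Krt7*, *Krt8*, and *Krt19* include 0 throughout.

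*Sfn* (ENSRNOG00000033153, chr5:151823887-151824633 in Rnor_6.0, minus strand) was upregulated at every time point. At Year 0.5 its TPM was 5.47, 6.56, and 7.06 in controls and 15.6, 20.3, and 10.1 in treated rats. The groups did not overlap, as in 17% of all genes with every treated rat higher in TPM at Year 0.5, and the log2 fold change was 1.43 (SE 0.29, FDR = 0.00479). At Year 1 the values were 3.29, 5.03, and 7.26 in controls and 9.74, 12.9, and 7.76 in the treated rats, again without overlap, although the highest control rat came close to the lowest treated rat. The log2 fold change was 1.20 (SE 0.33, FDR = 0.0178). This call rested on single rats: the fold change fell to 0.98 without control rat 1, the FDR rose to 0.0596 without control rat 2, and both limits were missed without MWCNT rat 2 (0.93, FDR = 0.0689). At Year 2 the control rats had 8.72, 8.90, and 4.12 TPM and the treated rats 15.1, 17.5, and 11.4, with every treated rat above every control rat. The log2 fold change was 1.22 (SE 0.32, FDR = 0.0112), and it was 0.94 (FDR = 0.0169) without control rat 3. Relative to *Epcam*, a pan-epithelial adhesion gene that was itself upregulated by a log2 fold change of 0.34, 0.30, and 0.48 (FDR = 0.00463, 0.00826, and 0.00526), the *Sfn* ratio was 0.0394 ± 0.0042 in control and 0.0820 ± 0.0248 in treated rats at Year 0.5 (SD, n = 3). The corresponding ratios were 0.0327 ± 0.0135 and 0.0604 ± 0.0160 at Year 1, and 0.0510 ± 0.0227 and 0.0832 ± 0.0137 at Year 2. Unlike the TPM values, the ratios separated the groups at Year 0.5 alone. They overlapped narrowly at Year 1, with the highest control rat at 0.0469 and the lowest treated rat at 0.0467. At Year 2 those 2 rats were at 0.0706 and 0.0701.

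The remaining 14-3-3 genes, ubiquitous adaptors that bind phosphorylated proteins, moved less than *Sfn*. Of the 7 family genes with *Sfn* included, 3, 4, and 4 were higher at an FDR below 0.05 at Years 0.5, 1, and 2 and none was lower, and *Sfn* was the DEG among them each time. *Ywhaz* had log2 fold changes of 0.13 (FDR = 0.15), 0.25 (FDR = 0.0329), and 0.35 (FDR = 0.00251). The most abundant, *Ywhae*, at a mean of 579 TPM, had log2 fold changes of 0.11, 0.18, and 0.17, none at an FDR below 0.05.

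*Krt14* and *Krt17*, the type I keratins of basal and of injured epithelium, were scarce in control lungs and upregulated at Years 1 and 2. *Krt14* (ENSRNOG00000003899, chr10:88055823-88122233, minus strand) had 1, 5, and 9 counts in the control rats of Year 1 and 35, 60, and 35 in the treated rats. Its log2 fold change was 3.17 (SE 0.48, FDR = 0.00102). At Year 2 it had 3, 2, and 0 counts in controls and 18, 55, and 83 in the treated rats, and the log2 fold change was 4.84 (SE 0.77, FDR = 0.000786). The ratio of the summed *Krt14* counts of Year 2 per total count was 27.7, with an exact 95% interval of 11.6 to 86.4 that covers counting error only. All treated rats were above all control rats at both time points, and *Krt14* remained a DEG there when any 1 rat was left out.

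*Krt17* (ENSRNOG00000026371, chr10:88118001-88163723, minus strand) behaved alike at these time points. The control rats of Year 1 had 4, 5, and 5 counts and the treated rats 10, 38, and 22, with a log2 fold change of 2.35 (SE 0.54, FDR = 0.00828). At Year 2 the counts were 2, 4, and 4 in controls and 17, 43, and 37 in the treated rats, with a log2 fold change of 3.21 (SE 0.48, FDR = 0.000576). The groups did not overlap at either time point, and the call held when any 1 rat was left out, although in 1 model of all 18 rats the FDR of Year 1 was 0.0502. Of all genes tested, 15% at Year 1 and 18.1% at Year 2 had every treated rat above every control rat in TPM.

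At Year 0.5 neither gene passed the test, and single rats of both groups carried most of the counts. *Krt14* had 9, 6, and 38 counts in controls and 90, 9, and 16 in the treated rats (log2 fold change 1.10, SE 0.95, FDR = 0.391). *Krt17* had 1, 11, and 43 counts in controls and 68, 27, and 9 in the treated rats (log2 fold change 0.83, SE 0.94, FDR = 0.521). Control rat 3 and MWCNT rat 1 were the highest of their groups for both genes, and the groups overlapped.

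*Krt5*, the type II partner of *Krt14* (ENSRNOG00000050420, chr7:143316920-143453546, minus strand), was at the edge of detection in most rats. The controls of Year 0.5 had 8, 1, and 24 counts and the treated rats 231, 0, and 3, so that 1 treated rat held nearly all of them. At Year 1 the control rats had 0, 1, and 1 counts and the treated rats 2, 70, and 12. The ratio of summed counts per total count was 40.2, with an exact 95% counting interval of 10.8 to 338 that does not include the spread between rats. At Year 2 the control rats had 2, 1, and 1 counts and the treated rats 0, 34, and 10, a ratio of 9.76 (3.55 to 37.4). Treated rats were thus above all control rats at Year 1 and overlapped with them at Years 0.5 and 2. The separation at Year 1 rested on 2 counts against 1. Of all genes tested at Year 1, 15% in TPM and 28.5% in TMM-adjusted CPM had every treated rat higher. With no filter on low counts, the edgeR FDR of *Krt5* was 0.18, 0.0116, and 0.0486 at Years 0.5, 1, and 2.

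*Krt15*, the most abundant keratin of the basal group, did not follow *Krt14* and *Krt17*. Its TPM at Year 0.5 was 5.50, 6.25, and 15.0 in controls and 24.6, 2.30, and 3.86 in the treated rats. At Year 1 it had 80, 170, and 147 counts against 65, 154, and 90, and at Year 2 its TPM was 21.8, 19.5, and 19.8 against 14.9, 17.7, and 10.8. In TPM the control rats of Year 2 lay above the treated rats of Year 2, as they did for 45.7% of all genes, and in TMM-adjusted CPM the groups overlapped. The log2 fold changes of the fit, which adjusts for library composition, were 0.32, -0.29, and -0.28, with FDRs of 0.766, 0.479, and 0.228. Limma on TPM gave FDRs down to 0.0332 at Year 2, with log2 fold changes down to -0.52.

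*Tp63* was the lowest of the 10 genes, with 2 to 21 counts in a rat. At Year 0.5 the counts were 5, 3, and 12 in controls and 21, 7, and 15 in the treated rats, with a log2 fold change of 1.03 (SE 0.64, FDR = 0.233). The groups overlapped at each time point. At Year 1 the counts were 9, 2, and 10 against 2, 20, and 10, and at Year 2 they were 4, 3, and 8 against 11, 9, and 7. Its relative *Tp73*, which ciliated cells are known to need, was lower (-0.80, -1.30, and -1.18, with FDRs of 0.0457, 0.000289, and 0.00243).

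**Figure D3:**
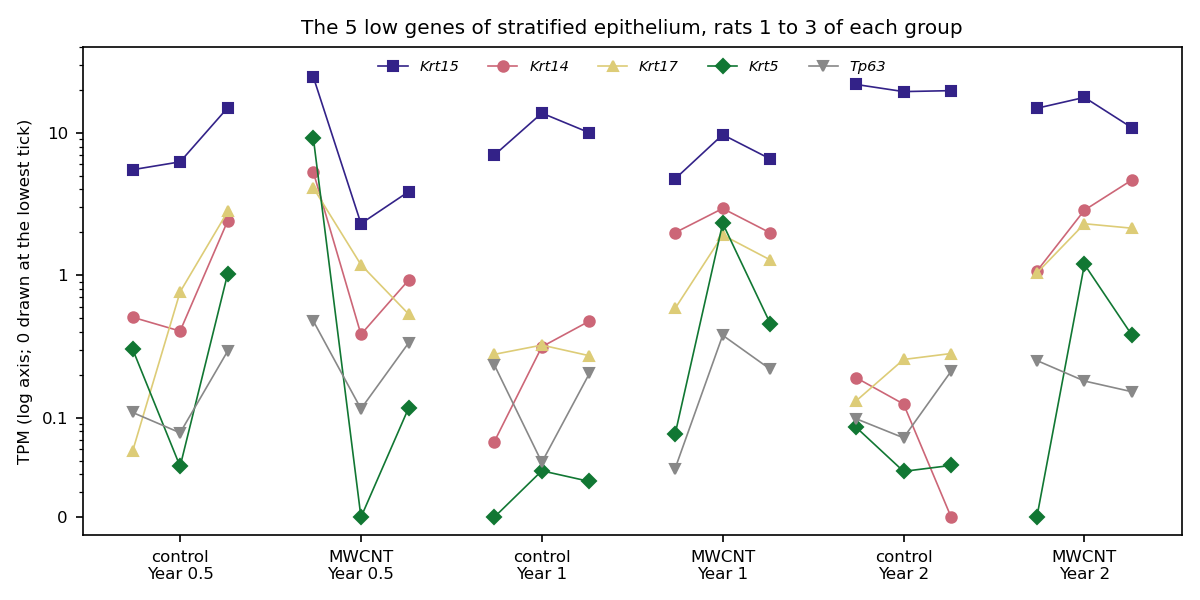
TPM of *Krt15*, *Krt14*, *Krt17*, *Krt5*, and *Tp63* on a log axis in rats 1, 2, and 3 of each group, from left to right, with 0 drawn at the lowest tick. Lines join the values of 1 gene within a group for reading only. MWCNT rat 1 of Year 0.5 is the highest of the 18 rats for all 5 genes, and *Krt14* and *Krt17* are higher in every treated rat than in every control rat of Years 1 and 2.

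Single rats stood out for several of the low genes at once. MWCNT rat 1 of Year 0.5 had the highest TPM of the 18 rats for *Krt5* (9.13), *Krt14* (5.28), *Krt15* (24.6), *Krt17* (4.10), and *Tp63* (0.476). Control rat 3 of Year 0.5 was the highest control rat for *Krt5* (1.02), *Krt14* (2.41), *Krt17* (2.80), and *Tp63* (0.294). After the group mean was removed, log2 CPM values over the 18 rats correlated at 0.85 for *Krt5* and *Krt15*, 0.82 for *Krt5* and *Krt14*, 0.78 for *Krt14* and *Krt15*, 0.69 for *Krt15* and *Krt17*, 0.63 for *Krt5* and *Krt17*, and 0.62 for *Krt14* and *Krt17*. *Tp63* correlated less closely with them, at 0.55 with *Krt5*, 0.52 with *Krt15*, 0.44 with *Krt17*, and 0.32 with *Krt14*. The summed TPM of the ciliated cell markers was 1487 in that control rat, the highest of all 18, and 581 in that treated rat, where the treated rats ranged from 255 to 581. The summed TPM of club cell markers was 31149 in that control rat and 15945 in that treated rat, with 18594 to 33535 in all control rats and 10857 to 15945 in all treated rats. In those sums the treated rat was the highest of its treatment and below every control rat. The part of airway content in the values of the low genes was not tested.

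Gene models overlap in this family, and counts of the low keratins are uncertain for that reason. In the deposited annotation the *Krt14* model contains all of *Krt19*, which had 2620 to 5735 counts where *Krt14* had 0 to 90, and it shares 4233 bases with *Krt17*. The *Krt17* model contains *Krt16* (0 to 7 counts), and the *Krt5* model contains *Krt1* (1 to 21 counts) and *Krt2* (4 to 47 counts). All of these lie on the same strand, and how reads in shared bases were assigned is not given in the sources used here. The fold changes of *Krt19* itself were 0.06, 0.02, and -0.23 on the log2 scale, beside the 1.10, 3.17, and 4.84 of *Krt14*.

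No simple keratin was a DEG at any time point, and the direction of *Krt7* and *Krt19* depended on the scale. *Krt8* had 192, 187, and 247 TPM in the control rats of Year 0.5 and 208, 214, and 182 in the treated rats. At Year 1 it had 205, 221, and 192 against 200, 177, and 189, and at Year 2 it had 211, 184, and 190 against 168, 216, and 172. The groups overlapped each time, and the log2 fold changes were 0.09, 0.11, and 0.14, with FDRs of 0.547, 0.276, and 0.321. The 95% intervals were -0.16 to 0.35, -0.06 to 0.28, and -0.11 to 0.39, so that a log2 fold change of 1 for *Krt8*, the leading marker of the transitional state, lay outside each of them.

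*Krt7* and *Krt19* differed by the scale used. In TPM, every treated rat was below every control rat at Year 1, with 179, 178, and 203 against 216, 225, and 219 for *Krt7*, and with 307, 319, and 324 against 361, 383, and 359 for *Krt19*. The same held at Year 2, with 176, 187, and 163 against 272, 241, and 212 for *Krt7*, and with 260, 330, and 227 against 398, 358, and 356 for *Krt19*. TPM has no adjustment for library composition, and 46.8% of all genes tested at Year 1 and 45.7% at Year 2 had every treated rat lower on that scale. In TMM-adjusted CPM the groups of both genes overlapped at all time points, and 26.3% and 29.8% of all genes had every treated rat lower at Years 1 and 2. At Year 0.5 no member lay wholly lower on either scale, where 40.7% of all genes did in TPM and 24.5% in TMM-adjusted CPM. Wholly higher in TMM-adjusted CPM were *Sfn* at Year 0.5, against 27.1% of all genes, and *Krt14*, *Krt17*, and *Sfn* at Year 2, against 30.1%. The log2 fold changes of the fit were 0.09, 0.00, and -0.25 for *Krt7* (FDR = 0.493, 0.989, and 0.0937). For *Krt19* at Year 1 the fit gave 0.02 (FDR = 0.845), and limma on log2(TPM + 1) gave -0.22 (FDR = 0.0163), the opposite sign. For *Krt7*, limma on TPM gave FDRs down to 0.0224 at Year 1 and 0.00491 at Year 2, with log2 fold changes down to -0.24 and -0.46. For *Krt19* at Year 2 it gave FDRs down to 0.0155 and log2 fold changes down to -0.46, where the fit gave -0.23 (FDR = 0.174). Scaling by library size only also brought both genes of Year 2 to an FDR below 0.05.

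*Krt18* was the simple keratin that rose, by a small amount. Its TPM at Year 1 was 66.8, 60.4, and 59.6 in controls and 73.3, 60.8, and 66.1 in the treated rats, which overlap, while in TMM-adjusted CPM all treated rats were above the control rats, as in 28.5% of all genes. The log2 fold change was 0.33 (SE 0.09, FDR = 0.0161), below the limit for a DEG. The FDR was 0.0985 with scaling by library size only and 0.384 with limma on log2(TPM + 1), and it passed 0.05 without control rat 2 (0.0644), control rat 3 (0.0742), or MWCNT rat 1 (0.0563). At Year 0.5 the log2 fold change was 0.08 (FDR = 0.454) and at Year 2 it was 0.30 (FDR = 0.0671).

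Ratios within a rat do not depend on the scaling of the library. The *Krt18* to *Krt8* ratio of TPM was 0.297 ± 0.027, 0.303 ± 0.027, and 0.317 ± 0.007 (SD, n = 3) among controls of Years 0.5, 1, and 2. In the treated rats it was 0.292 ± 0.021, 0.354 ± 0.013, and 0.353 ± 0.005. The treated rats of Years 1 and 2 lay between 0.343 and 0.368, above all 9 control rats, of which the highest was 0.326. The *Krt8* to *Epcam* ratio was 1.29 ± 0.12, 1.29 ± 0.06, and 1.34 ± 0.13 in controls and 1.08 ± 0.04, 1.12 ± 0.04, and 1.06 ± 0.14 in the treated rats, which lay below all control rats of their time point. At Year 2 the gap was small, with the highest treated rat at 1.198 and the lowest control rat at 1.208. The *Krt7* to *Epcam* ratio at Year 2 was 1.67 ± 0.29 in control and 0.999 ± 0.040 in treated rats, and the *Krt19* to *Epcam* ratio was 2.56 ± 0.29 and 1.55 ± 0.25. For *Krt7* the ratios were 1.38 ± 0.11 and 1.15 ± 0.10 at Year 0.5, and 1.37 ± 0.05 and 1.11 ± 0.10 at Year 1. For *Krt19* they were 2.29 ± 0.15 and 1.88 ± 0.09 at Year 0.5, and 2.30 ± 0.08 and 1.88 ± 0.09 at Year 1. Both ratios were lower in every treated rat than in every control rat of the same time point. The *Krt18* to *Epcam* ratio was lower in every treated rat at Year 0.5, at 0.380 ± 0.003 in control and 0.315 ± 0.014 in treated rats. Its groups overlapped at Year 1, at 0.388 ± 0.019 and 0.397 ± 0.029, and at Year 2, at 0.425 ± 0.031 and 0.373 ± 0.054. With *Cdh1*, the gene of E-cadherin, as the reference, the *Krt8* ratio overlapped between the groups at every time point, with 1.44 ± 0.18 and 1.28 ± 0.05 at Year 0.5, 1.39 ± 0.05 and 1.40 ± 0.05 at Year 1, and 1.62 ± 0.18 and 1.48 ± 0.19 at Year 2. No test was applied to these ratios, and the share of ratios of other genes that separate the groups in this way was not computed.

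**Figure D4:**
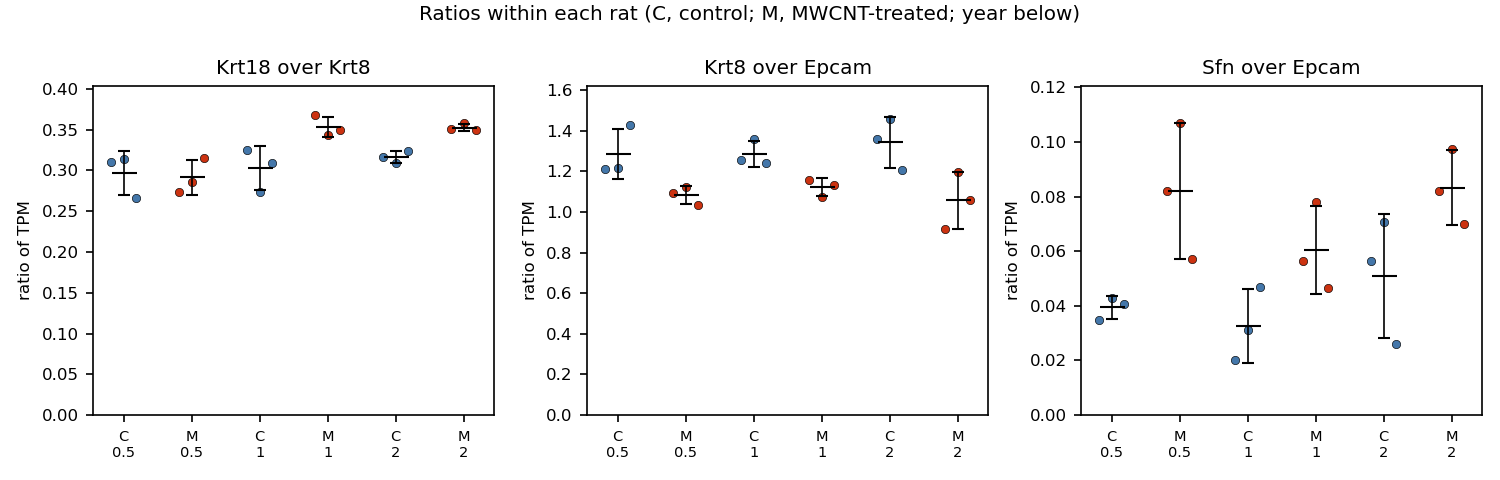
Ratios of TPM within each rat (vertical axes, from 0) for *Krt18* over *Krt8*, *Krt8* over *Epcam*, and *Sfn* over *Epcam*. C is control, M is MWCNT-treated, the number is the year, points are rats, and bars are the mean and SD of 3 rats. The treated rats of Years 1 and 2 lie at 0.343 to 0.368 for *Krt18* over *Krt8*, above the control rats.

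The change of the treatment effect with time was tested in 1 edgeR model of all 18 rats. Of the 10 genes, 0 had an interaction of treatment with Year 2 against Year 0.5 at an FDR below 0.05, where 1.31% of 14843 genes did, and DESeq2 and limma also called 0. At an unadjusted p below 0.05 there were 2, *Krt14* with a difference of log2 fold changes of 3.75 (SE 1.46, FDR = 0.251) and *Krt7* with -0.33 (SE 0.14, FDR = 0.314). For *Sfn* the difference was -0.20, with a 95% interval of -1.20 to 0.81. In the interaction of Year 1 against Year 0.5, 0 of the 10 genes had an FDR below 0.05, and 0 had an unadjusted p below 0.05. The calls of *Krt14* and *Krt17* at Years 1 and 2 are therefore not shown to differ from Year 0.5.

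Within the control rats, Year 2 differed from Year 0.5 in 0 of the 10 genes by the DEG criterion in edgeR, against 0.633% of all genes. At an unadjusted p below 0.05 there were 2, *Krt14* at -3.26 (SE 1.22, FDR = 0.114) and *Krt17* at -2.38 (SE 1.00, FDR = 0.156), and DESeq2 called *Krt14* (-3.36, FDR = 0.041). Control rat 3 of Year 0.5 held 38 of the *Krt14* counts and 43 of the *Krt17* counts of that group. Within the treated rats 0 genes were DEGs in edgeR and in DESeq2, against 2.34% of all genes. *Krt18* (0.25, FDR = 0.122) and *Krt19* (-0.27, FDR = 0.141) had an unadjusted p below 0.05. Without MWCNT rat 1 of Year 0.5, *Krt15* was called higher at Year 2 (2.34, FDR = 0.0045).

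When the treatment effect was averaged over the 3 time points, a comparison chosen after the data were seen, 4 of the 10 genes were DEGs, against 13.4% of all genes. These were *Krt5* (3.78, SE 1.14, FDR = 0.0079), *Krt14* (3.04, SE 0.57, FDR = 0.000156), *Krt17* (2.13, SE 0.52, FDR = 0.0016), and *Sfn* (1.28, SE 0.20, FDR = 2.1e-05). *Krt18* was higher by 0.24 (SE 0.06, FDR = 0.002), where 66.1% of all genes had an FDR below 0.05, but this call was lost with scaling by library size only (0.10, FDR = 0.148) and with limma on log2(TPM + 1) (0.04, FDR = 0.587). *Krt8* was at 0.11 (FDR = 0.135), *Krt7* at -0.06 (FDR = 0.407), and *Krt19* at -0.05 (FDR = 0.508). With limma on TPM, *Krt7* and *Krt19* had FDRs down to 0.000461 and 0.00214, with log2 fold changes down to -0.25 for each. The call of *Krt5* was lost without MWCNT rat 1 of Year 0.5 (1.85, FDR = 0.173), and *Tp63*, at 0.84 (SE 0.42, FDR = 0.0899), became a DEG without control rat 3 of Year 0.5 (1.09, FDR = 0.0418) or MWCNT rat 1 of Year 1 (1.00, FDR = 0.0329).

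Further genes of the transitional state were mostly upregulated, in contrast to *Krt8*. Of 21 tested, 14, 14, and 16 were higher and 2, 1, and 3 lower at an FDR below 0.05 at Years 0.5, 1, and 2, with median log2 fold changes of 0.95, 0.89, and 1.19. Among all genes tested, 20.2%, 21.6%, and 25.2% were higher and 18.6%, 19.6%, and 24% lower at that FDR. The most abundant, *Lgals3*, which encodes galectin-3, had log2 fold changes of 2.21, 2.48, and 3.03 (FDR = 7.1e-06, 3.34e-06, and 2.6e-07). *Lgals1* rose by 0.43, 1.00, and 1.20 (FDR = 0.0318, 0.000239, and 4.83e-06) and *Anxa1* by 0.39, 0.45, and 0.51 (FDR = 0.00628, 0.00827, and 0.00132), while *Clu* was higher at Year 2 alone (0.30, FDR = 0.0238). The tight junction gene *Cldn4* and the integrin gene *Itgb6* were chosen after their values were seen, from the genes that rose. *Cldn4* rose by 1.58, 1.70, and 2.37 (FDR = 0.00142, 0.000196, and 1.68e-05) and *Itgb6* by 0.89, 0.89, and 1.43 (FDR = 0.000591, 2.88e-05, and 3.56e-05). By the DEG criterion, 9, 10, and 13 genes of the list were higher and 0, 0, and 1 lower at Years 0.5, 1, and 2. Galectin-3 is also a macrophage product, and all 10 macrophage markers were higher at each time point, with a summed TPM of 26298 to 32479 in control and 62520 to 74228 in treated rats. The part of macrophages in the values of the galectins and of the other genes of this list was not tested.

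Further basal cell markers were mixed. Of 11 tested, 4, 2, and 3 were higher and 1, 2, and 2 lower at an FDR below 0.05, with median log2 fold changes of 0.07, -0.05, and 0.07. *Lamb3*, a chain of the laminin that anchors basal cells, rose by 0.36, 0.44, and 0.86 (FDR = 0.01, 0.0029, and 1.22e-05). *Perp*, a desmosome-associated target of p63, fell by 0.66, 0.77, and 1.32 on the log2 scale (FDR = 0.000661, 9.07e-05, and 7.37e-06). The most abundant, *Bcam*, had log2 fold changes of -0.14, 0.02, and -0.08, none at an FDR below 0.05. Alveolar cells are known to express *Bcam* and *Lamb3* as well.

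Desmosome and plakin genes, which tie keratin filaments to cell junctions, moved in both directions. Of 11, 11, and 12 tested, 5, 3, and 6 were higher and 2, 4, and 4 lower at Years 0.5, 1, and 2. The most abundant, *Jup*, which encodes plakoglobin, fell, with log2 fold changes of -0.36, -0.28, and -0.63 (FDR = 0.00554, 0.0262, and 0.000393). *Ppl*, which encodes periplakin, was at -0.14, -0.60, and -0.45 (FDR = 0.38, 0.00905, and 0.000417), and *Dsp*, which encodes desmoplakin, at -0.15, -0.38, and -0.34 (FDR = 0.154, 0.012, and 0.00374). *Plec*, which encodes plectin, was higher at Year 0.5 alone (0.32, FDR = 0.0202). *Dsc2*, a desmosomal cadherin named after its values were seen, rose by 1.34, 1.00, and 1.29 (FDR = 0.000232, 0.00021, and 0.000159). The median log2 fold change of the list in the fit was 0.26, -0.06, and 0.23 at Years 0.5, 1, and 2. The summed TPM of the list was 474 to 535 in control rats and 320 to 447 in treated rats. That sum has no adjustment for library composition and rests largely on *Jup*, at a mean of 245 TPM over the 18 rats.

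The remaining keratins were few. Of 39 others in the tables, 10 had no count in any rat and 8 were tested at each time point, of which 0 were higher and 3, 3, and 4 lower at an FDR below 0.05. *Krt80*, *Krt79*, and *Krt76* had means of 22.7, 21.5, and 15.2 TPM, above *Krt15*. At Year 2 *Krt76* had 20.4, 16.9, and 16.4 TPM in controls and 3.98, 6.09, and 4.48 in the treated rats. Those groups were far apart, and the log2 fold change was -1.67 (FDR = 8.34e-05). *Krt79* was lower by 0.84 on the log2 scale (log2 fold change -0.84, FDR = 0.00149) and *Krt80* by 0.52 (-0.52, FDR = 0.0137) at Year 2. *Krt23*, *Krt75*, and *Krt10* passed the test at no time point.

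Markers of the cells that carry simple keratins moved in opposite directions. All 10 alveolar type 2 markers were higher at Year 0.5, 8 at Year 1, and 9 at Year 2, and *Sftpc* rose by 0.96, 0.97, and 1.00 (FDR = 4.41e-05, 0.000145, and 3.64e-05). Of the 10 alveolar type 1 markers, 9, 8, and 10 were lower, with *Cav1* at -1.06, -1.13, and -1.77 (FDR = 0.000299, 9.29e-05, and 4.55e-06). Of the 9 ciliated cell markers, 7, 9, and 8 were lower, and of the 8 club cell markers tested 5, 5, and 4 were. *Scgb1a1*, the club cell secretoglobin, was at -0.87, -0.91, and -0.80 (FDR = 0.00227, 0.000559, and 0.00479), while *Bpifa1* rose at Year 2 (4.11, FDR = 0.00197). Of the 18 general epithelial markers, 12, 10, and 13 were higher and none was lower. Mesothelial cells also express simple keratins, and of their markers 0 of 8, 4 of 8, and 1 of 9 were higher and 0, 1, and 4 lower, with *Msln* at 0.11, 0.52, and 0.71 (FDR = 0.813, 0.0014, and 0.000812). How far these shifts offset each other in the totals of *Krt7*, *Krt8*, *Krt18*, and *Krt19* was not tested.

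**Figure D5:**
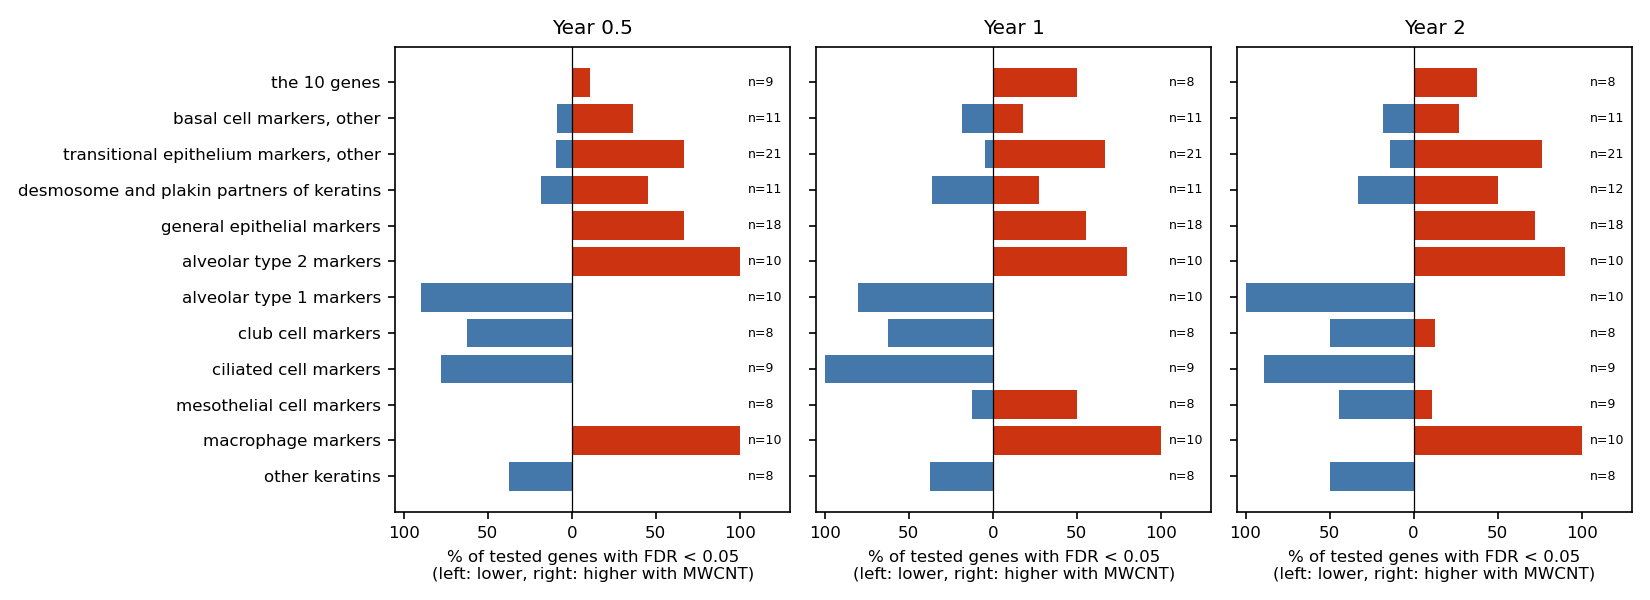
Share of the tested genes of each list (horizontal axis, percent) that were higher (right) or lower (left) in MWCNT-treated rats at an FDR below 0.05, for Years 0.5, 1, and 2, with n the number tested. Alveolar type 2, macrophage, and general epithelial markers and the other transitional genes lie mostly to the right, and alveolar type 1 and ciliated markers to the left.

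The genes most like each member were sought among 13947 genes by Pearson's r of log2 CPM over the 18 rats, as a description that includes the difference between treated and control rats. *Sfn* was most like *Ndc80* (0.91), *Rgs2* (0.90), and *Trh* (0.90). With the group means removed, these were 0.68, 0.78, and 0.76. *Krt14* was most like *Tpd52l2* (0.85), *Fbxo34* (0.85), and *Glrx2* (0.84), and *Krt17* was most like *Fndc1* (0.87), *Mrps2* (0.86), and *Dnajc15* (0.85). After removal of the group means, the values were 0.43, 0.85, and 0.49 for *Krt14* and 0.82, 0.80, and 0.75 for *Krt17*. The closest gene was *S100g* (0.88) for *Krt18*, *Ffar4* (0.86) for *Krt19*, *Cmtm8* (0.77) for *Krt7*, *Apmap* (0.79) for *Krt8*, and *C2cd5* (0.77) for *Krt15*. *Krt7* and *Krt19* were among the 3 genes most like each other (0.74). With the group means removed, the pairs of simple keratins differed in how closely they varied together between rats. The r was 0.86 for *Krt8* and *Krt19*, 0.79 for *Krt8* and *Krt18*, 0.72 for *Krt18* and *Krt19*, and 0.70 for *Krt7* and *Krt19*. It was lower for *Krt7* and *Krt8* (0.53) and for *Krt7* and *Krt18* (0.47), beside 0.60 for *Krt7* and *Sfn*.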

How the data were processed

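Total RNA of 18 lung pieces, 3 rats in each of 6 groups, was sequenced by the authors on an Illumina NovaSeq and mapped in CLC Genomics Workbench 22.0.2, and the submitters' processing notes name Rnor_6.0. The deposited counts are reads per gene without normalization. The deposited TPM values sum to the same total in every rat. The authors' TMM-adjusted CPM values are a normalized signal and were not used for the results. The TMM-adjusted CPM values given here were computed from the deposited counts of all 18 rats. RPKM values and the authors' comparison columns (fold changes and p-values) were not used. Groups were taken from the sample labels. Strandedness and the handling of reads mapped to several places are not given in the sources used here.

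Differential expression used edgeR 4.0.16 in R 4.3.3 (filterByExpr at 10 counts, total at least 15, TMM, quasi-likelihood test), by time point with 6 rats each, and in 1 model of 18 rats for interactions, effects of time, and the average over time points. FDRs were adjusted over all genes tested. Alternatives were other filters and scalings, DESeq2 1.42.0, limma 3.58.1 on log2(TPM + 1) and log2(TPM + 0.1), 1 model of all 18 rats, a replicate block, other thresholds, and each rat left out. The fits were tested on simulated data with known changes. The changed genes were drawn from those with higher mean counts than *Krt5*, *Krt14*, *Krt17*, or *Tp63*, and all genes were given the same spread between rats. The simulation therefore does not cover these low genes. Figures were drawn in Python 3.11.15.

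The genes named are the 10 members, the 4 genes of each list with the highest mean TPM, the 6 other keratins with the highest mean TPM, the 3 genes most like each member tested at all time points, overlapping keratin models, and those said to be chosen after their values were seen. Some genes under this rule are not reported here. Of 153 list entries 147 were found. The members and lists were chosen with earlier results of these data known. Counting intervals cover counting error only.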

Additional observations from a re-analysis of the deposited data

How the results depend on the processing

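The DEG count among the 10 genes was 1 (*Sfn*) at Year 0.5, and 1 under each of the alternatives run. At Year 1 it was 3, and it fell to 1 when at least 10 counts were required in every rat, since *Krt14* and *Krt17* are then not tested, and to 1 with limma on log2(TPM + 1), where *Krt17* was at 0.76 and *Sfn* at 0.87. The Year 1 count was 2 with limma on log2(TPM + 0.1) (*Sfn* at 0.99), 2 in 1 model of all 18 rats (*Krt17*, FDR = 0.0502), 2 at an FDR below 0.01, and 4 with no filter, which added *Krt5*. At Year 2 it was 3, and it fell to 1 with at least 10 counts in every rat. It was 2 with limma on log2(TPM + 1) (*Sfn* at 0.97), 2 at an FDR below 0.01, and 4 with no filter, which added *Krt5* (3.27, FDR = 0.0486). The count averaged over time points was 4, and it fell to 1 with at least 10 counts in every rat, to 1 with limma on log2(TPM + 1), and to 3 with limma on log2(TPM + 0.1), where *Krt5* was lost (1.39, FDR = 0.124). For control rats, Year 2 against Year 0.5, the count of 0 became 1 with DESeq2. With each rat left out, the counts ranged from 1 to 1 at Year 0.5, 2 to 4 at Year 1, 2 to 3 at Year 2, and 3 to 5 for the average, from 0 to 0 for the interaction and for control rats over time, and from 0 to 1 for treated rats over time. *Krt19* at Year 1 changed sign under limma on log2(TPM + 1) (-0.22, FDR = 0.0163) and on log2(TPM + 0.1) (-0.22, FDR = 0.0166). With scaling by library size only, the median log2 fold change of all genes shifted to -0.12, -0.13, and -0.18 at Years 0.5, 1, and 2.

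The replicate numbers recur in the labels but mark separate rats. Rats with the same number did not deviate together (mean r of 0.0069 in 9 pairs, against -0.0032 in 18 pairs with different numbers). With the replicate block the counts of DEGs were 1, 3, and 3 at Years 0.5, 1, and 2, and 0 for the interaction, as without it. With 3 rats a group, the low counts of *Krt5* in most rats and of *Tp63* in all limit the differences that could be shown.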
